A study of Mus musculus with 13 samples.

Results

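Expression of 10 genes of *de novo* lipogenesis was examined in gluteal white adipose tissue (WAT) of mice housed at a cool room temperature or at thermoneutrality. The genes are *Acly*, *Acaca*, *Acacb*, *Fasn*, *Srebf1*, *Mlxipl*, *Thrsp*, *Me1*, *Slc25a1* and *Acss2*, which were chosen for their known roles in making fatty acids from citrate or in regulating that pathway, and are 10 of 34419 genes in the count table. All 10 passed the filter on low counts. C57BL/6J male mice were kept at 22°C (7 mice) or 29°C (6 mice) for their whole life until collection at the age of 13 weeks, and all 13 mice of both groups had posterior hair removed after weaning and were housed singly with little bedding. No genetic change or drug was part of either group. RNA from the gluteal depot of each mouse was sequenced as 1 library, and the question is whether the RNA of these genes differs with environmental temperature and how it varies among mice kept at the same temperature.

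In *de novo* lipogenesis, pyruvate is turned into citrate in the mitochondria, citrate is carried to the cytosol and split into acetyl-CoA, acetyl-CoA is carboxylated to malonyl-CoA, and fatty acid synthase joins these units into palmitate with reducing power from NADPH. SREBP-1c, which responds to insulin, and ChREBP, which responds to products of glucose metabolism, are the best known transcriptional activators of the enzymes. In white adipose tissue of rodents the pathway is typically low in fasting, rises on refeeding with carbohydrate, and adds to the fatty acids that are taken up from the circulation.

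Library totals were between 22356637 and 25245785 counts, and the 5 lowest totals were all at 22°C. The other 8 libraries, the higher cluster of total counts, were 2 at 22°C and 6 at 29°C. Mature adipocyte genes were abundant in every library, with a summed level of 26560 to 39840 CPM (counts scaled to a common library size) at 22°C and 33360 to 40780 CPM at 29°C. *Ucp1*, which defines brown and beige adipocytes, was at 0 counts in 10 of 13 libraries, with 13 counts in total at 22°C and 0 at 29°C. Of the other 7 genes of the brown fat list, 6 had a log2 fold change above 0 at 22°C, against 51.6% of all genes, with a median of 2.27. By edgeR 3 were called, against 1.94% of all genes (*Cidea*, *Cox8b* and *Otop1*, with mean levels of 13.2, 50.1 and 4.80 CPM at 22°C). Skeletal muscle RNA varied strongly, with a summed level of 12 muscle markers of 714 to 81040 CPM at 22°C and 89.1 to 6404 CPM at 29°C. All 12 muscle markers had a log2 fold change above 0 at 22°C, with a median of 2.97, and 0 were called by edgeR. The part of muscle RNA in the brown fat list was not tested. The levels of the lipogenic genes are those of the whole tissue piece, in which fewer cells of a type and less RNA per cell cannot be told apart.

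The lipogenic genes did not pass the test for a temperature difference, and most of them instead differed several-fold among mice of the same temperature. *Acly*, *Acaca*, *Fasn*, *Me1*, *Slc25a1* and *Acss2* tended to be high in the same mice and low in the same mice, at both temperatures. The Pearson r of log2 CPM between pairs of these genes was 0.752 to 0.984 at 22°C and 0.906 to 0.996 at 29°C. Not every mouse followed the pattern, and in 22°C replicate 7 *Acly* was at 1.57 times its group median and *Slc25a1* at 0.78 times. *Srebf1* and *Mlxipl*, which encode the activators, varied much less. Of the 10 genes, 0 were called at P-adj below 0.1 by edgeR's quasi-likelihood test with Benjamini-Hochberg adjustment over 17779 genes, and 0 were called by DESeq2. Across all genes, edgeR called 1.94%, of which 0.731% of genes were higher at 22°C and 1.21% were lower, and DESeq2 called 10.2%. *Acacb* alone had an unadjusted p below 0.05, against 18.5% of all genes. In 0 of the 10 genes were the groups free of overlap, against 1.24% of all genes. The fitted log2 fold change of 22°C over 29°C was above 0 for 8 genes and below 0 for 2, with a median of 0.35, beside a median of 0.01 over all genes tested. Without 22°C replicate 1 the median over the 10 genes was 0.01, and without 29°C replicate 6 it was 0.64. Without 29°C replicate 6, 4 genes (*Acacb*, *Me1*, *Slc25a1* and *Acss2*) had an unadjusted edgeR p below 0.05, against 17% of all genes in that fit. The count was 1 without 22°C replicate 1, against 15.4% of all genes. In both fits 0 of the 10 genes were called.

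*Acly* encodes ATP citrate lyase, which splits cytosolic citrate into acetyl-CoA and oxaloacetate. Its level ranged from 178 CPM through a median of 381 to 1692 CPM at 22°C, and from 142 CPM through a median of 285 to 1058 CPM at 29°C. The ranges overlapped, and in each group 1 mouse stood well above the others, 22°C replicate 1 at 2.82 times the next mouse and 29°C replicate 6 at 2.03 times. The log2 fold change was 0.46 ± 0.59 (SE, n = 7 and 6, edgeR P-adj = 0.718), and it was -0.13 without 22°C replicate 1.

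*Slc25a1* encodes the mitochondrial carrier that exports citrate to the cytosol. It ranged from 275 CPM through a median of 389 to 710 CPM at 22°C, and from 158 CPM through 301 to 780 CPM at 29°C, so that the single highest and the single lowest of the 13 mice were both at 29°C. The log2 fold change was 0.20 ± 0.34 (SE, edgeR P-adj = 0.788). Leaving out the same 2 mice in turn gave 0.02 (22°C replicate 1) and 0.59 (29°C replicate 6). It turned to -0.06 within the 8 libraries of the higher cluster of total counts (2 at 22°C and 6 at 29°C). *Acss2*, which makes acetyl-CoA from acetate in the cytosol, ranged from 74.8 CPM through 114 to 320 CPM at 22°C and from 44.9 CPM through 82.7 to 292 CPM at 29°C. Its highest mouse at each temperature was again 22°C replicate 1 and 29°C replicate 6, and the log2 fold change was 0.34 ± 0.44 (SE, edgeR P-adj = 0.719). This value fell to 0.01 when 22°C replicate 1 was left out and rose to 0.90 when 29°C replicate 6 was.

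*Acaca* and *Acacb* encode the acetyl-CoA carboxylases ACC1 and ACC2. ACC1 is cytosolic and makes the malonyl-CoA that is used for fatty acid synthesis, whereas ACC2 sits at the outer mitochondrial membrane, where malonyl-CoA inhibits CPT1 and so the entry of fatty acids into mitochondria. *Acaca* ranged from 373 CPM through a median of 691 to 1761 CPM at 22°C and from 297 CPM through 517 to 1263 CPM at 29°C, with a log2 fold change of 0.35 ± 0.39 (SE, edgeR P-adj = 0.676), which was 0.01 when 22°C replicate 1 was left out and 0.70 when 29°C replicate 6 was. *Acacb* ranged from 180 CPM through 233 to 354 CPM at 22°C and from 116 CPM through 201 to 234 CPM at 29°C. The *Acacb* ranges overlapped, although 3 of 7 mice at 22°C were above the highest mouse at 29°C and 2 of 6 mice at 29°C were below the lowest mouse at 22°C. The fitted log2 difference of 0.49 ± 0.19 (SE, n = 7 and 6) had an unadjusted edgeR p of 0.0218 and a P-adj of 0.203, which did not pass the threshold. ACC2 RNA is abundant in skeletal muscle. *Acacb* was at 354 CPM in 22°C replicate 1, in which the muscle markers summed to 58300 CPM, and at 218 CPM, below its group median, in 22°C replicate 7, in which they summed to 81040 CPM, the most of any mouse. The log2 fold change of *Acacb* was 0.57 with the muscle score as a covariate (edgeR P-adj = 0.326), 0.26 within the libraries of the higher total counts and 0.27 with the cluster of total counts as a covariate.

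*Fasn* encodes fatty acid synthase, which makes palmitate. It was the most abundant of the 10 genes per length, with a level per kilobase of annotated exon of 674 ± 485 CPM per kb at 22°C (SD, n = 7) and 489 ± 454 CPM per kb at 29°C (SD, n = 6). In total it ranged from 2853 CPM through a median of 6792 to 18402 CPM at 22°C, a 6.45-fold span, and from 1175 CPM through a median of 4208 to 14944 CPM at 29°C, a 12.7-fold span. The highest mouse was 2.31 times the next one at 22°C and 2.75 times the next one at 29°C, and the lowest mouse of all was 29°C replicate 4. The log2 fold change was 0.46 ± 0.56 (SE, edgeR P-adj = 0.708), and its value was 0.05 when 22°C replicate 1 was left out and 1.10 when 29°C replicate 6 was. Without both of these mice, a fit chosen after seeing the data, it was 0.68 (edgeR P-adj = 0.469), and 0 of the 10 genes were called by edgeR, with 3 (*Acacb*, *Me1* and *Acss2*) at an unadjusted p below 0.05, against 13.9% of all genes in that fit. *Me1* encodes cytosolic malic enzyme, which turns malate into pyruvate and supplies NADPH. It ranged from 283 CPM through 469 to 1494 CPM at 22°C and from 198 CPM through 345 to 925 CPM at 29°C. The fitted log2 difference was 0.56 ± 0.42 (SE, edgeR P-adj = 0.503), and leaving out 22°C replicate 1 or 29°C replicate 6 gave 0.17 or 0.98.

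*Thrsp* encodes Spot 14, a nuclear and cytosolic protein that is induced along with lipogenesis and by thyroid hormone. It ranged from 403 CPM through a median of 484 to 908 CPM at 22°C and from 276 CPM through 671 to 1235 CPM at 29°C. The 2 highest mice were both at 29°C, and so was the lowest. The log2 fold change was -0.31 ± 0.33 (SE, edgeR P-adj = 0.649), and 0.01 with the cluster of total counts as a covariate.

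*Srebf1* encodes SREBP-1, of which SREBP-1c is the main form in adipocytes. It ranged from 475 CPM through a median of 638 to 890 CPM at 22°C and from 511 CPM through 700.3 to 732 CPM at 29°C, with the 29°C mice lying within the range at 22°C. The log2 fold change was 0.01 ± 0.14 (SE, edgeR P-adj = 0.974), and its sign turned in 4 of 13 fits that left out 1 library, namely 22°C replicates 5 and 6 and 29°C replicates 2 and 4. *Mlxipl* encodes ChREBP. It ranged from 141 CPM through 158 to 224 CPM at 22°C and from 153 CPM through 170.1 to 237 CPM at 29°C. The fitted log2 fold change was -0.08 ± 0.15 (SE, edgeR P-adj = 0.819), and it was 0.24 within the libraries of the higher total counts. Counts per gene do not tell the transcript forms of either gene apart, and the processing and nuclear entry of the proteins were not measured.

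**Figure D1:**
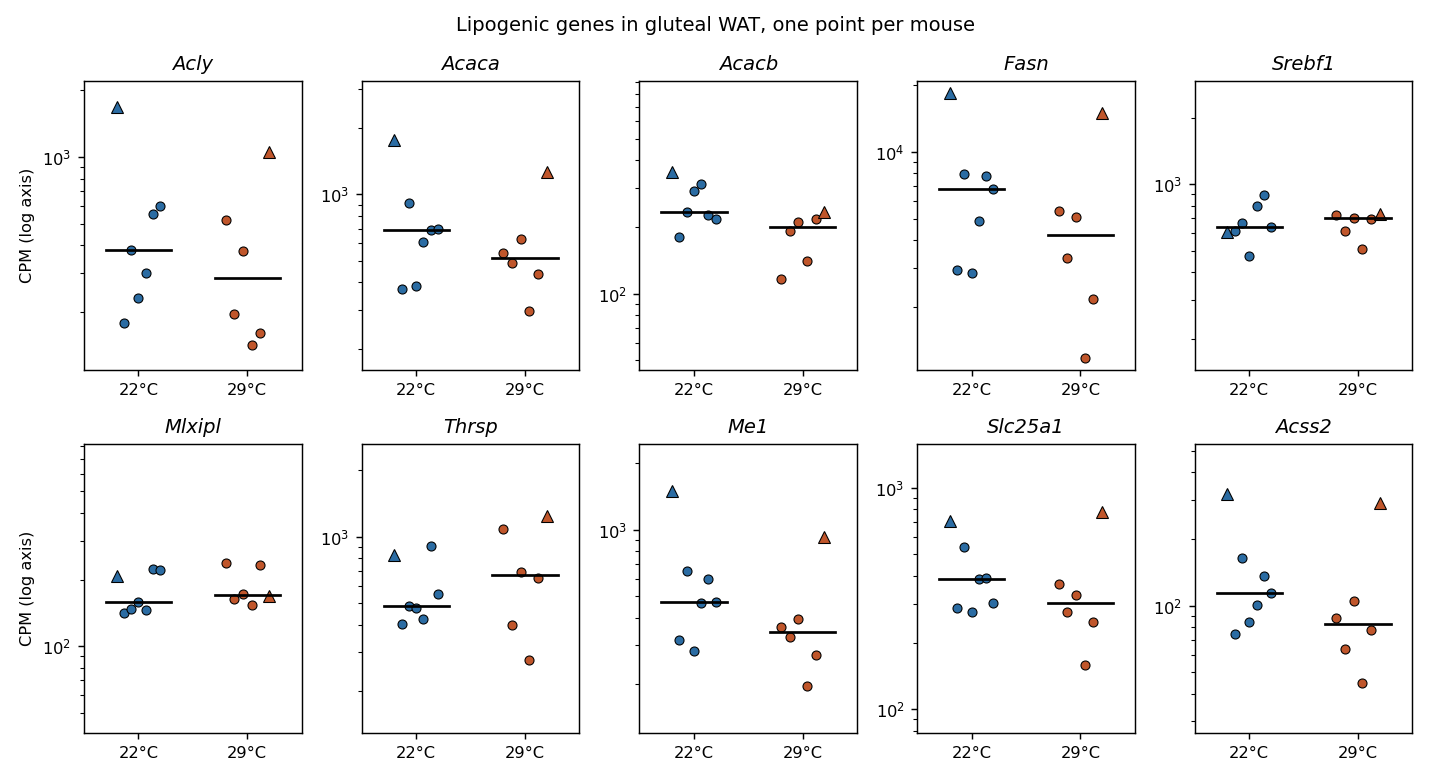
Level of each of the 10 lipogenic genes in CPM on a log axis that spans the same fold in every panel, with 1 point per mouse and a line at the group median, at 22°C (blue, 7 mice) and 29°C (orange, 6 mice). Triangles are 22°C replicate 1 and 29°C replicate 6, which lie above their groups for *Acly*, *Acaca*, *Fasn*, *Me1*, *Slc25a1* and *Acss2*, whereas *Srebf1* and *Mlxipl* span less than 2-fold.

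**Figure D2:**
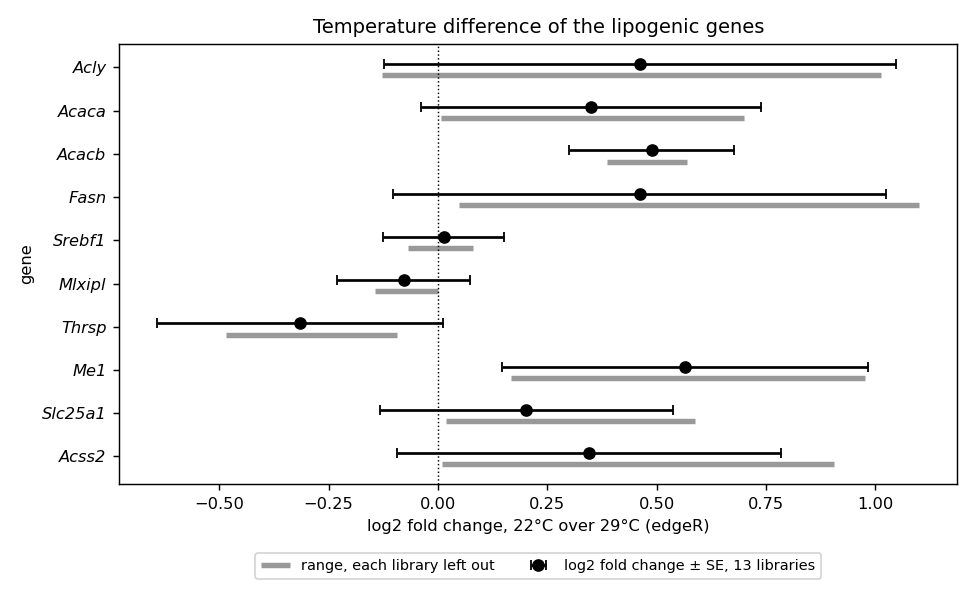
Fitted log2 fold change of 22°C over 29°C for the 10 genes, as points with bars of 1 SE from edgeR, and grey bars for the range of the fitted value as each of the 13 libraries was left out. The grey bar of *Acly* reaches -0.13 and that of *Fasn* runs from 0.05 to 1.10, and *Acacb* has a narrow bar from 0.39 to 0.57.

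Levels between genes can be compared per length only. On the scale of CPM per kilobase of annotated exon, the order at 22°C after *Fasn* was *Thrsp* at 266 ± 92.3, *Slc25a1* at 191 ± 73.6, *Me1* at 159 ± 107, *Srebf1* at 119 ± 24.1 and *Acly* at 107 ± 99.0 (SD, n = 7). The difference between neighbours in this order was within the larger of their SDs. The lower levels were those of *Acaca* at 45.5 ± 27.7, *Mlxipl* at 32.1 ± 6.82, *Acacb* at 26.9 ± 6.37 and *Acss2* at 13.98 ± 8.28. Of these, *Acacb* and *Acss2* differed by more than the larger of their SDs and the other neighbours did not. *Fasn* was the highest at 29°C as well. The exon lengths join all annotated transcripts of a gene and come from a GENCODE annotation of GRCm38 that may differ from the one used for counting, so the order is approximate.

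The spread among mice of one temperature was graded from gene to gene. The SD of log2 CPM was 1.08 at 22°C and 1.13 at 29°C for *Acly*, and 0.94 and 1.26 for *Fasn*, higher than in 95.7% and 97.0% of all genes for *Acly* and in 94.5% and 97.5% for *Fasn*. For *Srebf1* the SD was 0.29 and 0.20, and for *Mlxipl* 0.30 and 0.27. *Thrsp*, with 0.46 and 0.83, and *Slc25a1*, with 0.51 and 0.76, lay in between. The median over the 10 genes was 0.61 at 22°C and 0.76 at 29°C, beside 0.25 and 0.21 over all genes tested. *Acacb*, with 0.34 and 0.40, lay nearer to the activators than to *Acaca*, with 0.76 and 0.69.

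The genes that varied most tended to be high or low in the same mice. At 22°C, replicate 1 had the highest level of 7 of the 10 genes (*Acly*, *Acaca*, *Acacb*, *Fasn*, *Me1*, *Slc25a1* and *Acss2*), and replicate 6 had the highest level of the other 3 (*Srebf1*, *Mlxipl* and *Thrsp*). Replicate 2 was lowest for 6 of them and replicate 4 for 4. At 29°C, replicate 6 was highest for 9 genes, all but *Mlxipl*, and replicate 4 was lowest for 9, all but *Acacb*. The mean deviation of the 10 genes from their group means was 0.98 on the log2 scale in 22°C replicate 1, 1.06 in 29°C replicate 6 and -0.89 in 29°C replicate 4. Since *Fasn* was at 18402 CPM in 22°C replicate 1 and 14944 CPM in 29°C replicate 6, the 2 mice with the most lipogenic RNA came from different temperatures.

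**Figure D3:**
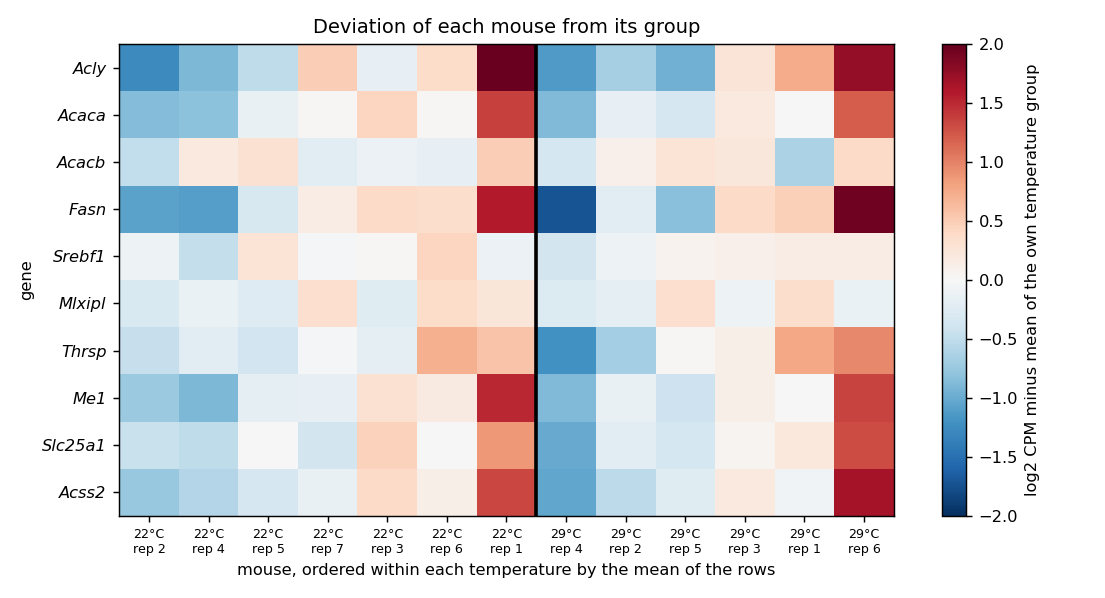
Log2 CPM of each gene in each mouse minus the mean of the mouse's own temperature group (red above, blue below), with mice ordered within each temperature by their mean over the 10 genes. 22°C replicate 1 and 29°C replicate 6 are red in most rows, 29°C replicate 4 is blue in every row, and the rows of *Srebf1*, *Mlxipl* and *Acacb* are pale.

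Correlation with *Fasn* was computed within each temperature, for every gene tested, on log2 CPM. At 22°C the Pearson r with *Fasn* was 0.98 for *Acaca* and *Me1*, 0.97 for *Acss2*, 0.95 for *Acly* and 0.89 for *Slc25a1* (n = 7). Spearman's rho was 0.93, 1, 0.96, 0.82 and 0.96 in the same order, and the two-sided exact permutation p of r was 0.000794, 0.000198, 0.000397, 0.00258 and 0.00774. At 29°C r was 0.99 for *Slc25a1*, 0.98 for *Acaca*, 0.97 for *Me1*, 0.96 for *Acly* and 0.93 for *Acss2* (n = 6). The Spearman coefficient was 1, 0.94, 0.94, 1 and 0.89, with exact permutation p of 0.00139, 0.00278, 0.00278, 0.00139 and 0.00833. The smallest p that the pairings allow is 0.000198 with 7 mice and 0.00139 with 6. After Benjamini-Hochberg adjustment over 17778 genes in each group, 0 genes passed P-adj below 0.1 in this exact permutation test, and the smallest adjusted values were 0.252 at 22°C and 0.281 at 29°C.

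The median r of the other 9 genes with *Fasn* was 0.89 at 22°C and 0.93 at 29°C, beside -0.02 and -0.06 over all genes. An r above 0.8 was found for 5 of 9 genes at 22°C, against 3.36% of all genes, and for 6 of 9 at 29°C, against 6.60%. The relation leaned in part on the extreme mice. Without the 2 mice farthest from the group's *Fasn* median (replicates 1 and 4 at 22°C, replicates 6 and 4 at 29°C), the median r was 0.66 and 0.61. Here and below, such values leave out 2 of 7 mice at 22°C and 2 of 6 at 29°C, so each rests on few mice. Differences between them were not tested. *Acaca*, *Me1* and *Acly* kept r of 0.95, 0.95 and 0.89 at 22°C and 0.90, 0.96 and 0.95 at 29°C without them. By contrast *Slc25a1* fell to 0.64 at 22°C and *Acss2* to 0.61 at 29°C.

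For the activators, *Srebf1* had r of 0.31 at 22°C (rho 0.29, exact permutation p = 0.506, adjusted 0.819, n = 7) and 0.78 at 29°C (rho 0.94, exact permutation p = 0.0667, adjusted 0.481, n = 6). In 22°C replicate 1, where *Fasn* was 2.71 times its group median, *Srebf1* was at 0.951 times its median, and in 29°C replicate 6, where *Fasn* was 3.55 times its median, *Srebf1* was at 1.04 times. *Mlxipl* had r of 0.61 at 22°C (rho 0.43, exact permutation p = 0.157, n = 7) and 0.06 at 29°C (rho 0.43, exact permutation p = 0.906, n = 6), with adjusted values of 0.637 and 0.983. Without the 2 mice farthest in *Fasn*, r at 22°C and 29°C was 0.59 and -0.17 for *Mlxipl*, and 0.43 and 0.40 for *Srebf1*. Without the 2 mice farthest in the activator itself, r with *Fasn* was 0.79 at both temperatures for *Mlxipl*, and -0.27 and 0.88 for *Srebf1*. Whether the activators and the enzymes differ in their correlation with *Fasn* was not tested, and at 29°C the rho of *Srebf1* equalled that of *Acaca* and *Me1*. *Acacb* had r of 0.44 and 0.36, and without the 2 farthest mice its r at 29°C was -0.60. Whether these correlations differ between temperatures was not tested.

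*Thrsp* had an r with *Fasn* of 0.74 at 22°C (rho 0.71, exact permutation p = 0.0552, adjusted 0.525, n = 7) and 0.86 at 29°C (rho 0.94, exact permutation p = 0.0264, adjusted 0.395, n = 6). *Thrsp* had a higher r with *Mlxipl* than with *Fasn* at 22°C, 0.85 (exact permutation p = 0.00992, adjusted 0.487, n = 7). At 29°C it had r of 0.93 with *Srebf1* (exact permutation p = 0.00139, adjusted 0.353, n = 6). Neither of these relations passed the adjustment over all genes.

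**Figure D4:**
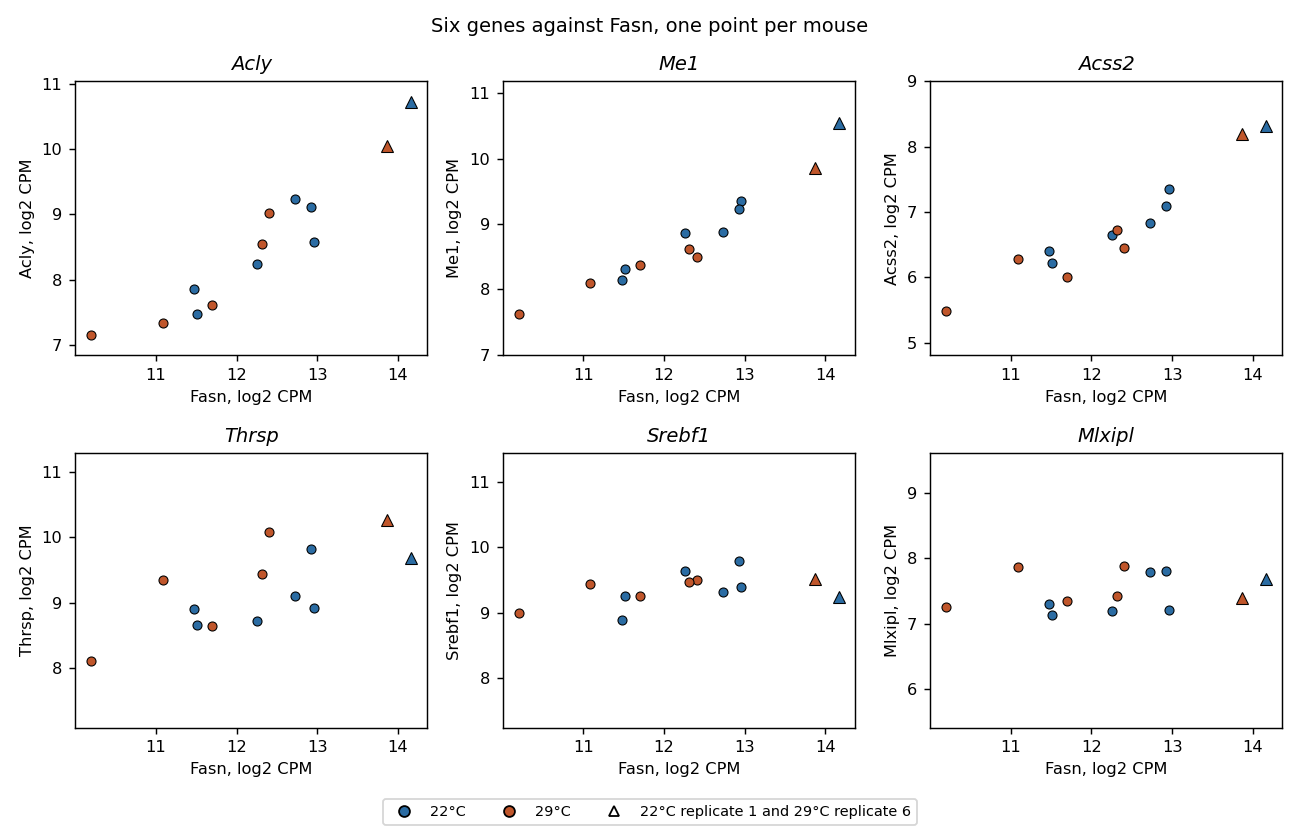
Log2 CPM of *Acly*, *Me1*, *Acss2*, *Thrsp*, *Srebf1* and *Mlxipl* (vertical axes, all of the same span) against log2 CPM of *Fasn*, with 1 point per mouse at 22°C (blue) and 29°C (orange) and triangles for 22°C replicate 1 and 29°C replicate 6. *Acly*, *Me1* and *Acss2* rise along *Fasn* through the mice of both groups, whereas *Srebf1* and *Mlxipl* stay within a narrow band.

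**Figure D5:**
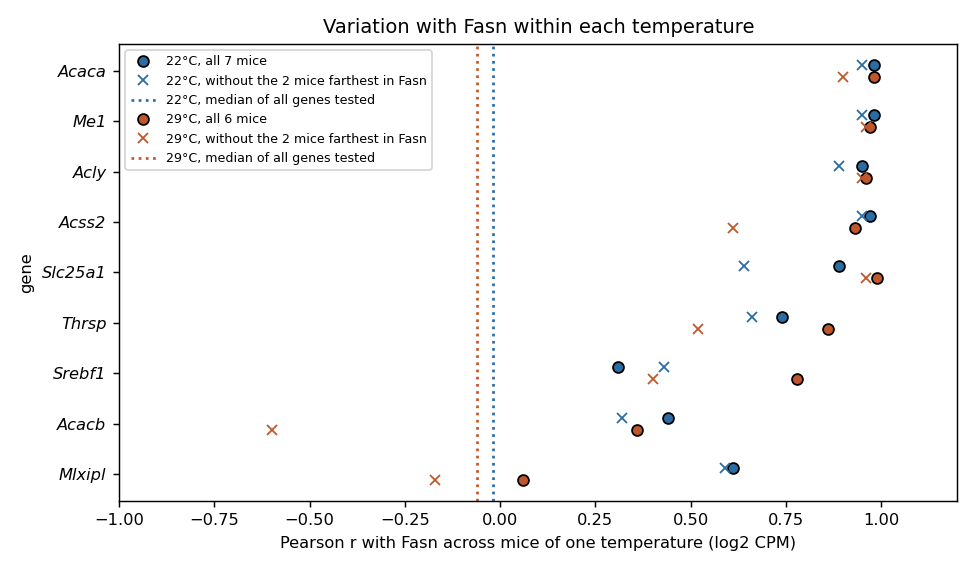
Pearson r with *Fasn* across the mice of one temperature for the other 9 genes, over all mice (circles, n = 7 at 22°C in blue and n = 6 at 29°C in orange) and without the 2 mice farthest from the *Fasn* median (crosses), with dotted lines at the median r of all genes tested. *Acaca*, *Me1* and *Acly* stay at 0.89 or above in both versions, and the cross of *Acacb* at 29°C lies at -0.60.

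Markers of other cell types were set beside *Fasn* in the same way, as the mean log2 CPM of each list, in which every gene has the same weight. Muscle markers had r of 0.24 with *Fasn* at 22°C (exact permutation p = 0.606, n = 7) and -0.66 at 29°C (exact permutation p = 0.144, n = 6), with 58300 CPM in 22°C replicate 1 and 89.1 CPM, the lowest of all mice, in 29°C replicate 6. The summed mature adipocyte markers were 29410 CPM in the former and 36510 CPM in the latter, within the range of the other mice. The mature adipocyte list had r of -0.12 at 22°C (exact permutation p = 0.802, n = 7) and 0.64 at 29°C (exact permutation p = 0.169, n = 6). Without the 2 mice farthest in *Fasn*, its r was 0.08 at 22°C and -0.64 at 29°C. The brown fat list had r of 0.84 at 22°C (exact permutation p = 0.03, adjusted over 20 relations 0.3, n = 7) and -0.23 at 29°C, with 308 CPM in 22°C replicate 1 and 49.8 CPM in 29°C replicate 6. The epidermis and sebaceous list had r of -0.96 at 29°C (rho -1, exact permutation p = 0.00694 and 0.00278, adjusted 0.139 and 0.0556, n = 6) and -0.26 at 22°C. At 29°C, r with *Fasn* was below 0 for 6 of its 7 genes, among them *Krt14* at -0.95 and *Krt5* at -0.91, and 0.62 for *Mgst1*, its most abundant gene. The part of other cell types in the variation of the lipogenic genes was not tested. Feeding state and time of collection are not given for single mice in the labels.

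Promoter windows of the genes that varied together and of the activators are shown to make the comparison of their sequences possible. The windows are the 250 bases before an annotated start from RefSeq on GRCm38.p6, which is not the build named for the counts, printed from 5′ to 3′ with motif matches in capitals. Capitals mark, on either strand, the E-box CACGTG, which carbohydrate response elements contain in related forms and which USF proteins bind, the CCAAT box (CCAAT), bound by NF-Y, the GC box GGGCGG, bound by Sp1-type factors, and the sterol regulatory element TCACNCCAC.
Fasn, chr11:120824548-120824797, minus strand: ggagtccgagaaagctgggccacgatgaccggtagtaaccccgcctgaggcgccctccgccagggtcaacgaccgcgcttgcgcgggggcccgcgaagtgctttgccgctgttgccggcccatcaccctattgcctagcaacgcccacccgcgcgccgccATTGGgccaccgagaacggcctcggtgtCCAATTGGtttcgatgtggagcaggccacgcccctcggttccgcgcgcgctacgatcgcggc
Acaca, chr11:84195188-84195437, plus strand: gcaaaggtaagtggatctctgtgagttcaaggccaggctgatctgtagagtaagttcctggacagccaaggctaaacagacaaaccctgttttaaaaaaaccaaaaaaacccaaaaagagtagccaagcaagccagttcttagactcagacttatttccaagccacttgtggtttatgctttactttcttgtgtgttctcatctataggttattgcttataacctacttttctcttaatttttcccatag
Me1, chr9:86695915-86696164, minus strand: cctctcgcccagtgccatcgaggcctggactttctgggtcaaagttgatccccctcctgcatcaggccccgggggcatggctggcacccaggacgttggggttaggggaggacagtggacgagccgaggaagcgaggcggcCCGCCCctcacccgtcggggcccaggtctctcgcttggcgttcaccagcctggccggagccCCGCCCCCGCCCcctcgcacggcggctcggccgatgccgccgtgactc
Acly, chr11:100528001-100528250, minus strand: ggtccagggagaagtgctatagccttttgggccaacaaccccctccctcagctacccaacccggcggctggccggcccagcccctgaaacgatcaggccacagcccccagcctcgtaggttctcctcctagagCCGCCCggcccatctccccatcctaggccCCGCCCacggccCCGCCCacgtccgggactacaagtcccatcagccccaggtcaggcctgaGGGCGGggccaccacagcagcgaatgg
Slc25a1, chr16:17928220-17928469, minus strand: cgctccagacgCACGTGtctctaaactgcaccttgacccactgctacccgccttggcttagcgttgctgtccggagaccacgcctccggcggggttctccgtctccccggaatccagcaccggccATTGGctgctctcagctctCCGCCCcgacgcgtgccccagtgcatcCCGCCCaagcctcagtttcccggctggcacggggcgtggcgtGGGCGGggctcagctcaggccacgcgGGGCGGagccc
Acss2, chr2:155517793-155518042, plus strand: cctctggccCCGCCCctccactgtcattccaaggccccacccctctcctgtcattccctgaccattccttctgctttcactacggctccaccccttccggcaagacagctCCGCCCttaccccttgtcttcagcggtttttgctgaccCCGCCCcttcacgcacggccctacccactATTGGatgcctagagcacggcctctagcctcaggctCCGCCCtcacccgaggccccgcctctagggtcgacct
Srebf1, chr11:60210472-60210721, minus strand: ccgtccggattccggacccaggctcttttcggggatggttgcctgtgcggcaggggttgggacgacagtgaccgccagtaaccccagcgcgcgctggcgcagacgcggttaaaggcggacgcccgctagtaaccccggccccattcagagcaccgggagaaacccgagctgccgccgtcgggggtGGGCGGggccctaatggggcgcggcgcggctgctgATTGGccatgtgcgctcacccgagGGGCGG
Mlxipl, chr5:135089640-135089889, plus strand: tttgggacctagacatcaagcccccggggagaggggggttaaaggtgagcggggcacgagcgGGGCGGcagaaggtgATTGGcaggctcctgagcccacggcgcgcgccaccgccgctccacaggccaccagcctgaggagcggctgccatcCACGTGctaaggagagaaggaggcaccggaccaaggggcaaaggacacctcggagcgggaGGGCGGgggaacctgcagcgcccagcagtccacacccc
All 10 genes matched, with 14 windows. *Fasn* held 3 CCAAT boxes in its window, and a pair of them overlap as CCAATTGG read on opposite strands. *Acaca* held none of the searched letters in its only window. Whether the start after that window is the one used in adipose tissue was not tested, and no other *Acaca* start was searched. The *Me1* window shown held 3 GC boxes. *Acly* held 4 GC boxes, *Slc25a1* held 1 E-box, 1 CCAAT box and 4 GC boxes, and *Acss2* held 1 CCAAT box and 4 GC boxes. The CCAAT box was found in 9 of the 14 windows, against 33.8% of 32851 windows of the same length, and the GC box in 7 of 14, against 32.7%. The E-box was in 2 of 14, in *Slc25a1* and in the *Mlxipl* window shown, against 6.02%. The sterol regulatory element was in 1 of 14, the other *Mlxipl* window, against 1.05%. A match is a string of letters in the window and not a measured binding site, and other spellings of these elements were not searched.

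Other genes of the pathway were taken from a list of 76 genes, of which 75 were tested and *Pklr*, a liver-type pyruvate kinase, did not pass the filter. By edgeR, 1 was called higher at 22°C and 1 lower, which is 2.67% of the list against 1.94% of all genes. The log2 fold change was above 0 for 46 of 75 (61.3%, against 51.6% of all genes), with a median of 0.08. *Mlycd*, which encodes the malonyl-CoA decarboxylase that removes malonyl-CoA, was higher at 22°C by 0.34 ± 0.07 on the log2 scale (SE, edgeR P-adj = 0.0724), from 41.2 ± 3.90 CPM at 29°C to 52.0 ± 4.68 CPM at 22°C (SD). *Fads3*, a member of the fatty acid desaturase family, was lower at 22°C by a log2 fold change of -0.59 ± 0.13 (SE, edgeR P-adj = 0.0726), from 577 ± 74.8 CPM at 29°C to 384 ± 74.8 CPM at 22°C (SD). As single libraries were left out, the call of *Mlycd* was lost for 22°C replicates 1, 3 and 7 and 29°C replicates 1 to 4, and that of *Fads3* for 22°C replicates 1, 4 and 7 and all 6 replicates at 29°C. Both were also lost with no filter on low counts (edgeR P-adj = 0.151 for each) and with the muscle score as a covariate (edgeR P-adj = 0.185 and 0.192). The same held within the libraries of the higher total counts (edgeR P-adj = 0.282 and 0.230), which were 2 at 22°C and 6 at 29°C. Both calls were kept by DESeq2 (P-adj = 0.00688 and 0.00176). The log2 fold changes of *Mlycd* and *Fads3* were 0.33 and -0.49 with the muscle score and 0.33 and -0.81 within the higher total counts. At an unadjusted edgeR p below 0.05 there were 15 of 75, against the 18.5% of all genes. The groups did not overlap for 1 of 75, against 1.24% of all genes. That gene was *Prkab1*, a subunit of AMP-activated protein kinase, which was named after its values were seen. Its log2 fold change was 0.18 ± 0.06 (SE, edgeR P-adj = 0.148).

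The citrate and acetyl-CoA supply list had 0 of 13 genes called by edgeR, with 2 at an unadjusted p below 0.05, against 18.5% of all genes. By DESeq2 0 were called, against 10.2% of all genes. Its most abundant members were *Pcx*, pyruvate carboxylase, with a log2 fold change of 0.00 ± 0.27 (SE, edgeR P-adj = 0.998), and *Cs*, citrate synthase, with 0.26 ± 0.17 (SE, edgeR P-adj = 0.435). Within temperatures the median r of its 13 genes was 0.92 at 22°C and 0.95 at 29°C, and 9 of 13 had r above 0.8 at both temperatures (*Cs*, *Pcx*, *Pdha1*, *Pdhb*, *Dlat*, *Mpc1*, *Mpc2*, *Mdh1* and *Mdh2*), against 1.28% of all genes. These encode the mitochondrial pyruvate carrier, subunits of the pyruvate dehydrogenase complex, pyruvate carboxylase, citrate synthase and malate dehydrogenases, which form the route from pyruvate to citrate and from oxaloacetate to malate. Without the 2 farthest mice, r of *Pcx* was 0.91 and 0.93 and that of *Pdhb* 0.93 and 0.90, and *Pdha1*, *Dlat* and *Mdh1* had at least 0.79 at both temperatures. At 29°C *Cs* fell to 0.56, *Mpc1* to 0.47, *Mpc2* to 0.42 and *Mdh2* to 0.48. The other members of the list were *Aco1* with r of 0.73 and 0.77, *Acss1* with 0.75 and 0.03, *Aacs* with 0.20 and 0.95 and *Acss3* with -0.17 and 0.02, over all mice at 22°C and 29°C.

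The NADPH supply list had 0 of 8 genes called by edgeR, with 2 at an unadjusted p below 0.05, against 18.5% of all genes. By DESeq2 1 was called, against 10.2% of all genes. *Tkt*, transketolase of the pentose phosphate pathway, had a log2 fold change of 0.39 ± 0.39 (SE, edgeR P-adj = 0.627) and *H6pd*, a hexose-6-phosphate dehydrogenase of the endoplasmic reticulum, -0.36 ± 0.15 (SE, edgeR P-adj = 0.212). *Tkt* followed *Fasn* with r of 0.98 at 22°C and 0.99 at 29°C (rho 1 in both, exact permutation p = 0.000198 and 0.00139, adjusted 0.252 and 0.281, n = 7 and 6). It kept r of 0.97 and 0.99 without the 2 farthest mice.

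Among genes of malonyl-CoA and fatty acid modification, 4 of 18 had r above 0.8 with *Fasn* at both temperatures, against 1.28% of all genes. These were *Elovl6*, which elongates palmitate, *Scd2*, a desaturase, and *Agpat2* and *Dgat2* of triacylglycerol synthesis. *Elovl6* had r of 0.97 and 0.94, and 0.92 and 0.98 without the 2 farthest mice, whereas without them at 29°C *Scd2* had 0.53, *Agpat2* 0.30 and *Dgat2* 0.07. The log2 fold change of *Elovl6* was 1.09 ± 0.63 (SE, edgeR P-adj = 0.378), with 0.27 when 22°C replicate 1 was left out and 1.58 when 29°C replicate 6 was. *Scd1*, the desaturase that makes palmitoleate and oleate, was at 27012 ± 6531 CPM at 22°C (SD, n = 7) and 19476 ± 6687 CPM at 29°C (SD, n = 6), with a log2 fold change of 0.47 ± 0.24 (SE, edgeR P-adj = 0.319). Its r with *Fasn* was 0.28 and 0.46. *Scd1*, *Elovl6*, *Scd2*, *Agpat2*, *Dgat2* the citrate genes other than *Cs*, *Pcx* and *Pdhb*, and *Nr1h3*, *Srebf2* and *Hlcs* were named after their values were seen.

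Members of the regulator lists had r with *Fasn* of either sign. The median r was -0.01 and -0.31 for SREBP control (11 genes), 0.14 and -0.06 for ChREBP partners and targets (7 genes), 0.40 and -0.11 for ACC and lipogenic cofactors (12 genes) and 0.35 and 0.16 for glucose and insulin input (6 genes). Of the 36 genes, 0 had r above 0.8 at both temperatures, against 1.28% of all genes, a share too small for a count of 0 to set these lists apart. Single members passed 0.8 in size at 1 temperature, among them *Insig1* with 0.84 at 22°C (0.76 at 29°C), *Slc2a4* with 0.83 at 22°C, *Nr1h3* with 0.83 at 29°C, and *Srebf2* with -0.82 and *Hlcs* with -0.84 at 29°C. By edgeR 0 of the 36 were called, with 8 at an unadjusted p below 0.05, against 18.5% of all genes. By DESeq2 3 were called, against 10.2% of all genes, all of them among ACC and lipogenic cofactors. *Rxra* and *Insig1*, the most abundant of SREBP control, had log2 fold changes of -0.04 ± 0.07 and 0.05 ± 0.37 (SE). *Txnip* and *Mlxip*, which are a target and a paralog of ChREBP, had -0.39 ± 0.32 and 0.24 ± 0.09, with edgeR P-adj of 0.548 and 0.199. *Prkaa1*, a catalytic subunit of AMP-activated protein kinase, had 0.09 ± 0.09, and *Mid1ip1*, which activates ACC, -0.30 ± 0.28. *Slc2a4*, the insulin-responsive glucose transporter GLUT4, had 0.10 ± 0.14, and *Akt2*, a kinase of insulin signaling, -0.10 ± 0.12.

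Genes most like the 10 in pattern were sought with a score for each mouse, the mean over the 10 genes of log2 CPM minus the group mean. Of 10323 other genes with a mean of at least 10 CPM, the highest Pearson r with the score over the 13 mice was 0.983 for *Cyb5b*, 0.981 for *Pdhb*, 0.969 for *Mtch2*, 0.968 for *Acss2os* and 0.966 for *Pcx*. These values are a description and were not tested. *Cyb5b* encodes an outer mitochondrial membrane cytochrome b5 and *Mtch2* a carrier-like protein of the outer mitochondrial membrane. *Acss2os* is annotated opposite *Acss2*, and since the strand setting of the counts is not stated, its reads and those of *Acss2* cannot be told apart with certainty. By comparison, r with the score was 0.98 for *Fasn*, 0.85 for *Thrsp*, 0.48 for *Srebf1*, 0.47 for *Acacb* and 0.39 for *Mlxipl*, each of which is itself part of the score.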

How the data were processed

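Gluteal WAT RNA of 13 mice was sequenced, and groups follow the temperature given in the labels. Per the submitters' processing notes and the paper's methods, the authors aligned reads with STAR 2.7.5a and counted them with featureCounts, and they deposited raw counts of 34419 genes. The authors also deposited regularized log2 values from DESeq2. The notes name the GRCm39 build and the paper's text names mm10 for cultured cells. The annotation and the strand setting are not given in the sources used here, so overlapping and antisense genes are uncertain. Symbols were matched by identifier for 34006 genes.

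Counts were compared with edgeR 4.0.16 in R 4.3.3 (TMM, filterByExpr, quasi-likelihood F test, Benjamini-Hochberg adjustment, threshold P-adj below 0.1, no covariate). SEs were derived from the log2 fold change and its F value. CPM are scaled by TMM, and their log2 values use a prior count of 2. Correlations were tested by exact permutation over all pairings in Python 3.11.15. The P-values measure the spread between mice, 1 library each. Alternatives were DESeq2 1.42.0, its size factors, no filter, a replicate block, single libraries left out, total-count clusters, a muscle covariate and limma 3.58.1 on the deposited log2 values. Leaving out both libraries with the highest *Fasn* was added after seeing the data. No 2 libraries were duplicates (chi-square per gene of at least 11.3 in 78 pairs). On simulated counts of 17779 genes for 22°C against 29°C, 149 of 200 genes changed by 1 on the log2 scale (74.5%) were called, with 14 false calls. The 200 genes were drawn from all genes, whose median SD of log2 CPM was 0.25 at 22°C and 0.21 at 29°C. The rate does not hold for genes as variable as *Fasn*, with 0.94 and 1.26, in which a change of this size can be missed.

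The genes and lists were chosen with earlier results of these data known. Named genes are the 10 lipogenic genes, in each pathway list those called or, where none was, the 2 most abundant, and the 5 genes nearest in pattern. Exceptions are stated.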

Additional observations from a re-analysis of the deposited data

Results flagged for a closer look

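For each of the 10 genes, the highest and lowest mouse of a temperature group was compared with the rest by Dixon's gap test at its 95% critical value. Of 20 sets of values, 10 held a mouse far above the others in CPM, where normally distributed values give about 1 in 20. The test was run on CPM and not on log2 CPM. Levels that are skewed upward can be flagged more often, so the 2 rates cannot be compared directly. All 10 came from 2 mice. In 22°C replicate 1 these were *Acly* at 1692 CPM, *Acaca* at 1761 CPM, *Fasn* at 18400 CPM, *Me1* at 1494 CPM and *Acss2* at 319.8 CPM. In 29°C replicate 6 these were *Acaca* at 1263 CPM, *Fasn* at 14940 CPM, *Me1* at 924.6 CPM, *Slc25a1* at 780.4 CPM and *Acss2* at 291.5 CPM. The sets are not independent, since the genes vary together and share the libraries. The muscle markers summed to 58300 CPM in the former mouse and to 89.1 CPM in the latter, and the cause of the high levels was not tested.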

How the results depend on the processing

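The count of 0 of the 10 genes called was the same in all 22 alternative fits, in which the smallest P-adj was 0.104, for *Acacb*, and the fitted direction was kept in 209 of 220 values. The 11 that turned were *Acly* at -0.1269 without 22°C replicate 1 (up to 1.0125 without another library), *Srebf1* between -0.0687 and 0.0812 over the fits that left out 1 library (below 0 in 4 of 13) and -0.002 by limma, *Mlxipl* at 0.2384 and 0.2464, *Slc25a1* at -0.059 and -0.0472, and *Thrsp* at 0.0095. The values of *Mlxipl* and *Slc25a1* are from the libraries of the higher total counts and from the total-count cluster as a covariate, and that of *Thrsp* is from the latter. In both fits the temperature contrast rests on 2 mice at 22°C and 6 at 29°C, since the lower cluster held no mouse at 29°C. Of the 75 pathway genes, 2 were called in the fit reported and with DESeq2 size factors and limma, 7 with DESeq2, and 0 with no filter on low counts, within the higher total counts, with either covariate (total-count cluster or muscle score) or without both mice of the highest *Fasn*, and between 0 and 4 as each library was left out. Over all genes the count of calls was 345 in the fit reported, 42 with no filter, 1676 with DESeq2, and between 32 and 652 as each library was left out. The causes were not tested. The median r with *Fasn* was between 0.66 and 0.89 at 22°C and between 0.61 and 0.94 at 29°C over the alternatives. Replicate numbers 1 to 6 occur at both temperatures, and same-numbered mice had correlated deviations of 0.05 to 0.51, with 3 of 6 best correlated with their own number. The labels name no pairing, and the fit reported used none. Whether mice of the same number share a factor was not tested. The replicate block was fitted on replicates 1 to 6 only, so that 22°C replicate 7 was left out. In that fit 0 pathway genes and 0 of the 10 genes were called. Leaving out 22°C replicate 7 without a block also gave 0 pathway genes called, so the part of the block cannot be told apart. Depth did not limit these genes, which had at least 1193 counts in every library, and counting error is small beside the spread between mice.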
